A study of Mus musculus with 6 samples.

Results

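Perforin and the genes that carry cytotoxic granules to the cell surface were examined in cultured CD8+ effector T cells (Teff) from WT and *Scd-1*-/- mice. The 10 genes were named by function: *Prf1*, *Nkg7*, *Srgn*, *Lamp1*, *Rab27a*, *Unc13d*, *Stx11*, *Stxbp2*, *Lyst* and *Vamp7*. All 10 were found by symbol among the 34745 genes listed in each of the 6 libraries, and all 10 had a mean FPKM of at least 1 (counts divided by the length of the gene and by the total of the library), the level required for testing.

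The libraries were made from RNA of Teff, 3 from WT C57BL/6J mice and 3 from *Scd-1*-/- mice (B6.129-Scd1tm1Ntam/J). The mice were males of 6 to 8 weeks. The *Scd1* null allele is carried in the germline, so every cell of the animal lacks the gene and not only its T cells, and the genotypes had separate sources, with the *Scd-1*-/- mice donated and the WT mice purchased, so source and genotype cannot be told apart. Splenic CD8+ T cells of both genotypes were purified with a magnetic kit, stimulated for 3 days with 5 μg/mL anti-CD3 and 0.5 μg/mL anti-CD28 plus 100 U/mL IL-2, held in IL-2 alone for another 3 days and collected on day 6. The labels do not say whether the libraries of a genotype came from separate mice, so p-values measure only the spread between these libraries, which may be technical.

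Cytotoxic T cells kill by releasing granules onto a target cell. The granules hold perforin, which forms pores in the target membrane, and granzymes, proteases that enter through that route, packed on the proteoglycan serglycin. After the T cell receptor has raised calcium, granules move to the contact site, are tethered by Rab27a, primed by Munc13-4 and fused with the plasma membrane by a SNARE complex that holds syntaxin-11 and its chaperone Munc18-2. Inherited loss of perforin, Munc13-4, syntaxin-11, Munc18-2, Rab27a or the Lyst protein causes haemophagocytic disease.

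The RefSeq promoters (GRCm38.p6) of *Prf1*, *Nkg7* and *Lamp1* are shown because they belong to the 2 members with the largest changes and to the member with the change nearest to 0. Each holds 250 bases before and 50 bases after the RefSeq start site, on the plus strand. Capitals mark matches on either strand to AGGTGTGA (a T-box motif), TGTGGT (Runx), AGGAAGT (Ets), CTTTGA (Tcf) and CACGTG (E-box). The *Prf1* window is chr10:61297586-61297885, that of *Nkg7* is chr7:43436888-43437187 and that of *Lamp1* is chr8:13158911-13159210.
Prf1: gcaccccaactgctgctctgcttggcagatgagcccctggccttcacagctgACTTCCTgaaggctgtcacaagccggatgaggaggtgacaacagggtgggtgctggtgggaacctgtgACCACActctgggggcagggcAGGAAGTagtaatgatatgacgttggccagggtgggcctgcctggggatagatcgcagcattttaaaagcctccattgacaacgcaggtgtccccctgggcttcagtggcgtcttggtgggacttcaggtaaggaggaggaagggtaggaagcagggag
Nkg7: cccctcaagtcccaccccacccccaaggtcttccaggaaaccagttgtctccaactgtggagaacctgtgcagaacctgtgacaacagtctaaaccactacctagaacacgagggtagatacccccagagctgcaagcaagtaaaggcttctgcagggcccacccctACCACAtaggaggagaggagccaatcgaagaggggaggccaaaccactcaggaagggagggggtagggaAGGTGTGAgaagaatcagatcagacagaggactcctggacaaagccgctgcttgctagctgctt
Lamp1: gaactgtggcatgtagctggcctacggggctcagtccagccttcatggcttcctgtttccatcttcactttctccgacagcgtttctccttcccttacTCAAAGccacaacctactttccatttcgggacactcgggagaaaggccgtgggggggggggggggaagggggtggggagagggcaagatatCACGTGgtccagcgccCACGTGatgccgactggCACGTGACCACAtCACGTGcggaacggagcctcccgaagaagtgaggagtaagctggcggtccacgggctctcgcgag

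The *Prf1* window held the Ets letters at 2 places, at -198 to -192 and at -109 to -103 from the start site, and the Runx letters between them at -130 to -125. The *Nkg7* window held the T-box letters at -14 to -7 and the Runx letters at -83 to -78. The *Lamp1* window held the E-box at 4 places between -61 and -10, with the Runx letters directly beside the third of them and the Tcf letters at -152 to -147. Of the 10 promoters listed for 8 members (*Srgn* and *Rab27a* have 2 each), 5 held the Runx letters (*Prf1*, *Nkg7*, the second of *Srgn*, *Lamp1*, the first of *Rab27a*), 3 the E-box (*Lamp1*, the second of *Rab27a*, *Stxbp2*), 2 the T-box letters (*Nkg7*, the first of *Rab27a*), and 1 each the Ets letters (*Prf1*) and the Tcf letters (*Lamp1*). Over all 32817 RefSeq promoters of the same length, these letters were found in 16.8% (Runx), 7.15% (E-box), 1.27% (T-box), 9.35% (Ets) and 16.0% (Tcf). A match of letters does not show that a factor binds there, and no binding was measured in these cells.

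The libraries held 14034479 to 15866216 counts each. *Scd1*, the deleted gene, had 3074 to 4272 counts in the WT and 20 to 36 counts in the *Scd-1*-/- libraries. Replicate 1 of each genotype deviated from its group mean in the same direction (r = 0.595 across 9627 genes), so results are also given from replicates 2 and 3 alone. Its r with replicates 2 and 3 of the other genotype was between -0.560 and -0.316. A net negative r there follows from the positive one, because the deviations within a genotype sum to 0. The defining CD8 T cell markers were present in every library, *Cd3e* at 263 to 367 FPKM and *Cd8a* at 43.2 to 47.6 FPKM in WT against 27.9 to 36.6 FPKM in *Scd-1*-/- Teff (log2 fold change -0.46, edgeR quasi-likelihood adjusted p = 0.297, with the block 0.0630, and with replicates 2 and 3 alone -0.58 and 0.0166). *Cd8b1* was likewise lower in replicates 2 and 3 alone (-0.40, edgeR adjusted p = 0.0382). Of the defining markers of other lineages, *Cd4* was at most 0.345 FPKM, *Ncr1* at most 0.221 FPKM, *Csf1r* at most 0.0484 FPKM and *Ms4a2* at 0, whereas *Trdc* reached 17.1 FPKM. Other markers of these lineages were higher, among them *Klrb1c* at up to 9.39 FPKM, *Tyrobp* at up to 31.5 FPKM, *Mcpt8* at up to 9.21 FPKM, *Cd79b* at up to 10.7 FPKM and *Tcrg-C2* at up to 317 FPKM.

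*Prf1* RNA was higher in *Scd-1*-/- Teff. In edgeR's quasi-likelihood test over 9627 genes with genotype only, no gene that tethers, primes or fuses the granule passed. That fit called only 0.114% of tested genes, so the lack of calls does not show that these genes were unchanged. Without an FPKM minimum, edgeR called the tethering gene *Sytl2*. All *Scd-1*-/- libraries lay above all WT libraries for *Vamp7*, *Rab27a* and *Sytl2* (log2 fold changes 0.69, 0.39 and 1.28). For *Unc13d*, *Stx11* and *Stxbp2* the genotypes overlapped (-0.04, -0.15 and -0.06). DESeq2, also with genotype only, called the fusion gene *Vamp7* (adjusted p = 0.0243) and the tethering gene *Sytl2* (4.91e-07). *Prf1* was the only member with a Benjamini-Hochberg adjusted p under 0.05 in edgeR's quasi-likelihood test over 9627 genes, 1 of 10 against a background of 0.0727% of tested genes called higher. It was also the only member past the thresholds of the study (at least 1 in size on the log2 scale, with an unadjusted p under 0.001), where the background was 0.499%. No member was lower by either rule, against backgrounds of 0.0415% and 0.239%, and 5 members, all higher, had an unadjusted p under 0.05, against 5.42% of tested genes higher at that p. DESeq2's Wald test called 3 members higher (*Prf1*, *Nkg7* and *Vamp7*), against 1.67% of tested genes, and 0 lower, against 1.09%. With the replicate number as a block, 3 of 10 members rose (*Prf1*, *Nkg7* and *Vamp7*), against 2.64% of tested genes. In 4 of 10 members the *Scd-1*-/- libraries all lay above the WT libraries in FPKM, against 7.67% of tested genes, and in 0 members all below, against 8.32%. The median log2 fold change of the members was 0.20, and that of all genes tested was -0.00.

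**Figure D1:**
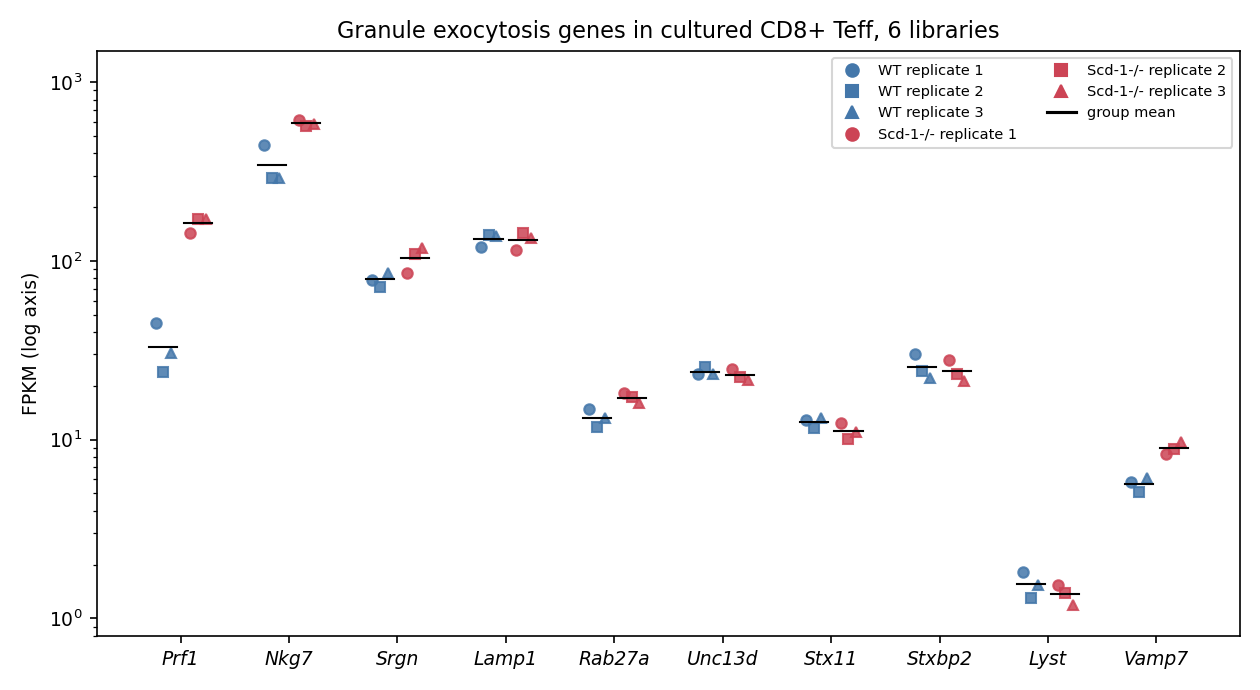
Level of each of the 10 members in FPKM on a log axis, 3 WT (blue) and 3 *Scd-1*-/- (red) libraries, with symbols for the replicate number and black lines for the group means. The red points lie wholly above the blue ones for *Prf1*, *Nkg7*, *Rab27a* and *Vamp7* and overlap them for the other 6 members.

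*Prf1* (ENSMUSG00000037202; GRCm38 chromosome 10, 61297833 to 61304680, plus strand) encodes perforin itself. Its level was 44.9, 23.8 and 30.6 FPKM in WT replicates 1, 2 and 3 and 143, 173 and 172 FPKM in the *Scd-1*-/- replicates. Even the highest WT library, replicate 1, was far under the lowest *Scd-1*-/- library, which was also replicate 1. The means were 33.1 ± 10.8 FPKM in WT against 163 ± 16.7 FPKM in *Scd-1*-/- Teff (n = 3 each, SD). The fitted log2 fold change was 2.31, or 4.97-fold (standard error 0.248, 95% interval 1.74 to 2.89, edgeR quasi-likelihood adjusted p = 0.0259). It was 2.36 with the replicate block (adjusted p = 0.00286). In WT Teff *Prf1* stood at the 77.3rd to 87.8th percentile of the FPKM of tested genes, and in *Scd-1*-/- Teff at the 96.4th to 96.9th. By same-numbered pairs, the log2 CPM was higher in *Scd-1*-/- Teff by 1.67, 2.86 and 2.55, so the pair of replicate 1 gave the smallest difference. In fits that each left out 1 library the change stayed between 2.12 and 2.62 and past the thresholds of the study in 6 of 6, but the adjusted p was under 0.05 in only 2 of 6. It was 0.138 when WT replicate 2 was omitted, 0.190 for WT replicate 3, 0.0991 for *Scd-1*-/- replicate 2 and 0.163 for *Scd-1*-/- replicate 3 (edgeR). In bulk RNA, a gene's level per cell and the share of cells that express it cannot be told apart.

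Some markers of other killer lymphocytes were higher in the same libraries as *Prf1*. The summed FPKM of 4 gamma delta T cell markers was 102 to 140 in WT and 197, 385 and 441 in the *Scd-1*-/- libraries. *Tcrg-C2* made up most of this sum in both genotypes, at 85.6 to 113 FPKM in WT and 155, 265 and 317 FPKM in the *Scd-1*-/- replicates. *Trdc*, the constant gene of the delta chain, was at 1.33 to 2.61 FPKM in WT against 7.83 to 17.1 FPKM in *Scd-1*-/- Teff. None of these 4 passed edgeR's quasi-likelihood test without the block (all 4 had an unadjusted p under 0.05, and DESeq2 called 4), and all 4 were higher with it (*Trdc*, adjusted p = 0.0098). The summed FPKM of 8 natural killer cell markers was 4.66 to 6.73 in WT and 16.8, 43.9 and 45.6 in the *Scd-1*-/- libraries. Of the 4 natural killer markers tested, edgeR called 0 without the block (4 had an unadjusted p under 0.05, and DESeq2 called 2) and 3 higher with it. *Tyrobp*, at 30.0 and 31.5 FPKM in *Scd-1*-/- replicates 2 and 3, made up most of the sum there. *Klrb1c*, which encodes NK1.1, was at 0.501 to 0.938 FPKM in WT and 1.66, 9.39 and 7.79 FPKM in the *Scd-1*-/- replicates (log2 fold change 3.09, edgeR adjusted p = 0.121, with the block 0.0059), and *Fcgr3* was the third marker higher with the block (adjusted p = 0.0264). The defining marker *Ncr1* was at 0 in 2 of the 3 *Scd-1*-/- libraries. The sum of 6 CD8 T cell markers was 1885 to 2379 FPKM in WT against 1837 to 2108 FPKM in *Scd-1*-/- Teff, and the sum of 5 mast cell and basophil markers was 0.938 to 1.47 FPKM in WT and 1.54, 13.0 and 12.1 FPKM in the *Scd-1*-/- replicates 1, 2 and 3. Of these, *Mcpt8* was called higher with the block (edgeR adjusted p = 0.0264, without it 0.237) and by DESeq2 (0.0035). The summed levels were 124 to 146 and 129 to 150 FPKM for 4 CD4 T cell markers, of which *Cd4* itself gave at most 0.345 FPKM. They were 9.41 to 10.7 and 3.13 to 7.99 FPKM for 5 B cell markers, and 0.423 to 1.17 and 1.88 to 2.24 FPKM for 7 myeloid markers. *Cd79b* gave nearly all of the B cell sum and was called lower with the block (edgeR adjusted p = 0.0434, without it 0.387). The part of these markers in the result for *Prf1* or any other member was not tested.

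**Figure D2:**
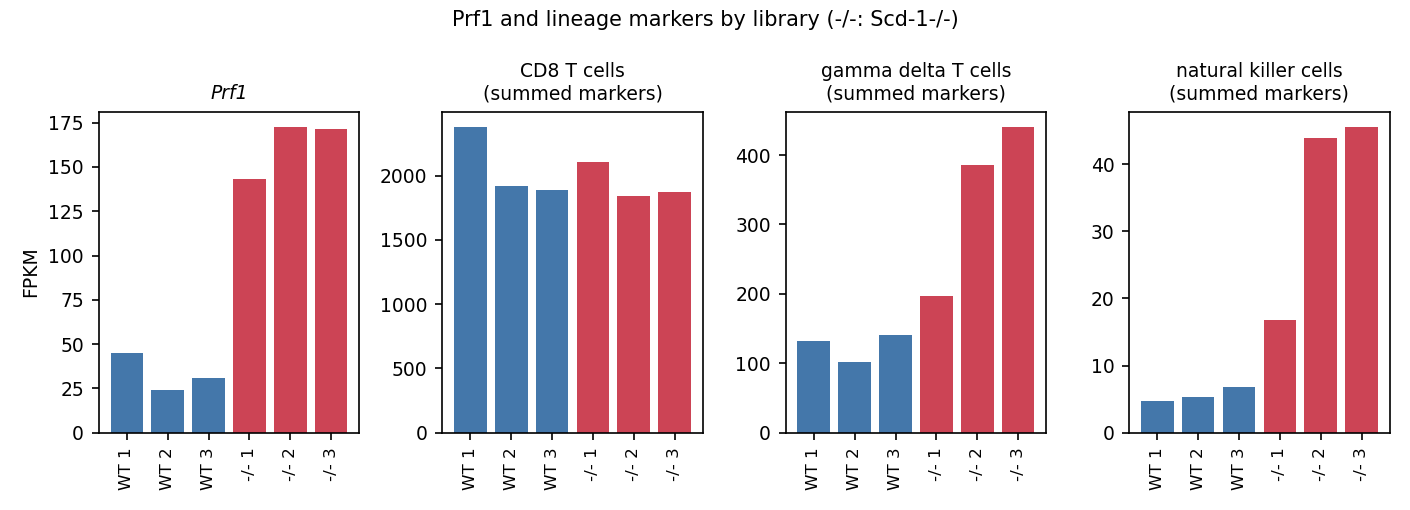
FPKM of *Prf1* and the summed FPKM of CD8 T cell, gamma delta T cell and natural killer cell markers in each library, WT in blue and *Scd-1*-/- in red, with each bar 1 library and axes from 0. *Scd-1*-/- replicate 1 had 143 FPKM of *Prf1* against 173 and 172, and lower gamma delta and natural killer sums than replicates 2 and 3 (197 against 385 and 441, and 16.8 against 43.9 and 45.6). WT replicate 1 had 44.9 FPKM of *Prf1* against 23.8 and 30.6 in WT replicates 2 and 3. Its natural killer sum was the lowest of the WT libraries (4.66 against 5.32 and 6.73). The gamma delta sums of WT replicates 1, 2 and 3 were 132, 102 and 140.

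The share of *Prf1* among the granule transcripts was higher in every *Scd-1*-/- library than in any WT library. Of the summed FPKM of the 10 members, *Prf1* made up 5.77%, 3.93% and 4.90% in WT replicates 1, 2 and 3 and 13.6%, 16.0% and 15.8% in the *Scd-1*-/- replicates. The mean share was 4.86% ± 0.921 in WT and 15.1% ± 1.34 in *Scd-1*-/- Teff (n = 3 each, SD), a difference of 10.3 percentage points with a two-sided exact permutation p of 0.1, the smallest that 3 libraries against 3 can give. Per length, *Prf1* was at 0.374, 0.170 and 0.222 of the *Lamp1* level in the WT libraries and at 1.25, 1.20 and 1.28 of it in the *Scd-1*-/- libraries. *Lamp1* encodes a granule membrane glycoprotein, and *Prf1* lay above it in all 3 *Scd-1*-/- libraries and in none of the WT libraries. Against serglycin the ratio was 0.331 to 0.571 in WT and 1.46 to 1.68 in *Scd-1*-/- Teff.

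The order of the members by mean FPKM in WT Teff was *Nkg7*, *Lamp1*, *Srgn*, *Prf1*, *Stxbp2*, *Unc13d*, *Rab27a*, *Stx11*, *Vamp7* and *Lyst*. Neighbours whose library values overlapped were *Prf1* and *Stxbp2*, *Stxbp2* and *Unc13d*, and *Rab27a* and *Stx11*. In *Scd-1*-/- Teff *Prf1* stood directly after *Nkg7*, ahead of *Lamp1* and *Srgn*, and the order below these was as in WT. There the values of *Prf1* and *Lamp1* overlapped, as did those of *Lamp1* and *Srgn* and those of *Stxbp2* and *Unc13d*.

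Among the other granule contents and membrane proteins, *Nkg7* and serglycin differed in how far the libraries parted. *Nkg7* (chromosome 7, 43437073 to 43438249, plus strand) encodes a granule membrane protein that cytotoxic lymphocytes need for degranulation. It was the most abundant member per length, at 446, 290.0 and 291 FPKM in the WT and 618, 571 and 582 FPKM in the *Scd-1*-/- replicates 1, 2 and 3. All *Scd-1*-/- libraries lay above all WT libraries, with WT replicate 1 well above the other WT libraries. Its log2 fold change was 0.80 (standard error 0.195, 95% interval 0.35 to 1.26) and did not pass edgeR's quasi-likelihood test (adjusted p = 0.203). With the replicate block it was 0.84 and passed (adjusted p = 0.0174), and without WT replicate 1 it was 1.06 and passed (adjusted p = 0.0152).

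*Srgn* (chromosome 10, 62493833 to 62527451, minus strand) encodes serglycin, the proteoglycan core on which perforin and granzymes are stored. Its level was 78.7, 71.8 and 85.7 FPKM in the WT and 85.3, 109 and 117 FPKM in the *Scd-1*-/- replicates. *Scd-1*-/- replicate 1 lay inside the WT range and the other *Scd-1*-/- libraries above it. The log2 fold change was 0.42 (standard error 0.151, edgeR quasi-likelihood adjusted p = 0.396, 0.0889 with the block).

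*Lamp1* (chromosome 8, 13159161 to 13175338, plus strand) encodes CD107a, whose appearance at the cell surface is the usual measure of degranulation. It was at 120.3, 140.4 and 138 FPKM in the WT and 115, 144 and 134 FPKM in the *Scd-1*-/- replicates. The ranges overlapped throughout. The log2 fold change was 0.00 (95% interval -0.30 to 0.31). *Lamp1* overlaps the antisense gene *Grtp1* by 3317 bases, but *Grtp1* had 114 counts over the 6 libraries and *Lamp1* 26377.

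Of the members for tethering, priming and granule size, only *Rab27a* had libraries that lay apart by genotype. *Rab27a* (chromosome 9, 73044854 to 73097629, plus strand) encodes the small GTPase that docks granules at the membrane. It was at 14.8, 11.8 and 13.3 FPKM in the WT and 18.3, 17.3 and 15.9 FPKM in the *Scd-1*-/- replicates. The *Scd-1*-/- libraries lay wholly above the WT libraries by a small margin. The log2 fold change of 0.39 (standard error 0.142) did not pass edgeR's quasi-likelihood test (adjusted p = 0.409, or 0.0769 with the block). *Unc13d* (chromosome 11, 116062095 to 116077961, minus strand), which encodes the priming factor Munc13-4, was at 23.3, 25.5 and 23.2 FPKM in the WT and 25.0, 22.5 and 21.6 FPKM in the *Scd-1*-/- replicates, with a log2 fold change of -0.04 (95% interval -0.32 to 0.25). *Lyst* (chromosome 13, 13590397 to 13778803, plus strand), which encodes the regulator of lysosome and granule size that is mutated in Chediak-Higashi syndrome, was the least abundant member. It was at 1.304 to 1.82 FPKM in WT against 1.19 to 1.55 FPKM in *Scd-1*-/- Teff (log2 fold change -0.16, 95% interval -0.64 to 0.32). For *Unc13d* and *Lyst* the ranges of the genotypes overlapped.

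Of the members for fusion, only *Vamp7* had libraries that lay apart by genotype. *Vamp7*, which encodes a vesicle SNARE of late endosomes and lysosomes, is placed on an unlocalised scaffold of GRCm38. It was at 5.83, 5.06 and 6.08 FPKM in the WT and 8.36, 8.81 and 9.68 FPKM in the *Scd-1*-/- replicates. The ranges lay well apart, with a spread of 0.529 and 0.666 FPKM (n = 3 each, SD) around means of 5.65 and 8.95. The log2 fold change was 0.69 (standard error 0.171, 95% interval 0.29 to 1.08) and did not pass edgeR's quasi-likelihood test (adjusted p = 0.216). It passed with the replicate block (0.69, adjusted p = 0.0465), and the same-numbered pairs differed by 0.51, 0.80 and 0.73 in log2 CPM. *Vamp7* rested on 180 to 389 counts per library.

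*Stx11* (chromosome 10, 12938209 to 12964298, minus strand) encodes syntaxin-11, the plasma membrane SNARE of granule fusion. It was at 12.9, 11.7 and 13.2 FPKM in the WT and 12.3, 10.1 and 11.0 FPKM in the *Scd-1*-/- replicates (log2 fold change -0.15, 95% interval -0.52 to 0.22). *Stxbp2* (chromosome 8, 3630955 to 3643644, plus strand) encodes its chaperone Munc18-2 and was at 30.0, 24.4 and 22.2 FPKM in the WT and 28.0, 23.2 and 21.3 FPKM in the *Scd-1*-/- replicates (log2 fold change -0.06, 95% interval -0.46 to 0.35). In *Stxbp2* replicate 1 was the highest library of each genotype and replicate 3 the lowest, and the genotypes overlapped. Neither gene passed edgeR's quasi-likelihood test (adjusted p = 0.830 for *Stx11* and 0.9498 for *Stxbp2*).

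With replicates 2 and 3 alone, 5 of 10 members were higher with an adjusted p under 0.05 in edgeR's quasi-likelihood test, against 6.53% of tested genes called higher. They were *Prf1* (log2 fold change 2.70), *Nkg7* (1.02), *Vamp7* (0.77), *Srgn* (0.56) and *Rab27a* (0.44). This fit leaves out replicate 1, whose pair gave the smallest *Prf1* difference. The other 5 members lay between -0.20 and 0.04. The thresholds of the study were passed by 2 of 10 (*Prf1* and *Nkg7*), against 2.25% of tested genes.

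**Figure D3:**
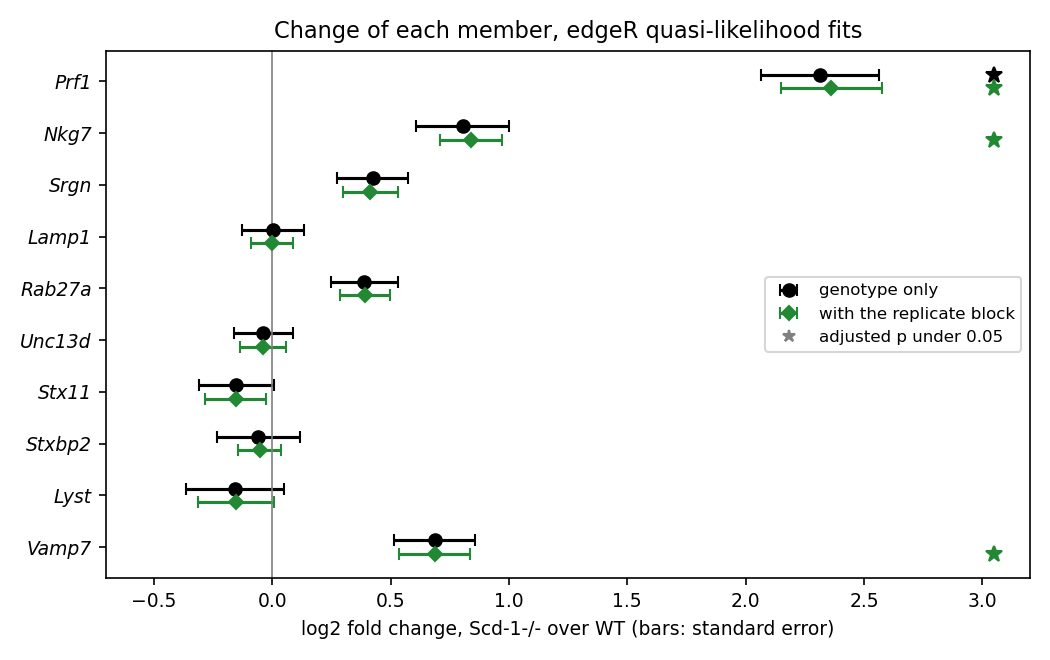
Log2 fold change (*Scd-1*-/- over WT) of each member with its standard error, from edgeR's fits with genotype only (black circles) and with the replicate block (green diamonds), 3 libraries a genotype. Stars mark an adjusted p under 0.05, which *Prf1* reached in both fits and *Nkg7* and *Vamp7* with the block.

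*Prf1*, *Lamp1*, *Rab27a*, *Unc13d* and *Stxbp2* lay far above the paralogs named here. None of these paralogs was called by edgeR's quasi-likelihood test, with or without the block, or by DESeq2, where the block and DESeq2 were not run for *Mpeg1*, *Rab27b*, *Unc13b* and *Stx3*, which had a mean FPKM under 1. *Lamp2* and *Rab27b* had an unadjusted p under 0.05. With replicates 2 and 3 alone, edgeR called *Lamp2* higher (0.62, adjusted p = 0.0296) and *Unc13a* lower (-0.997, adjusted p = 0.0181). Per length, *Lamp1* was 36.9 times *Lamp2* in WT and 27.5 times in *Scd-1*-/- Teff, and *Unc13d* was 14.2 and 21.6 times *Unc13a*. *Rab27b*, the close relative of *Rab27a*, was at 0.117 ± 0.0317 FPKM in WT against 0.322 ± 0.109 FPKM in *Scd-1*-/- Teff (n = 3 each, SD). Its libraries lay apart, but its log2 fold change of 1.46 did not pass edgeR's quasi-likelihood test over all genes with a count (adjusted p = 0.218). *Mpeg1*, which encodes the perforin-like protein of macrophages, had a mean of 0.0475 FPKM in WT against 0.0048 FPKM in *Scd-1*-/- Teff.

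The syntaxin, Lyst and VAMP families had more than 1 expressed form. *Stx4a* was close to *Stx11*, at 10.6 ± 1.63 FPKM in WT against 9.94 ± 2.11 FPKM in *Scd-1*-/- Teff, whereas *Stx3* was at or under 0.114 FPKM on average. *Stxbp2* was 21.2 and 17.7 times *Stxbp3*. *Nbeal2*, of the Lyst family, was at 18.6 and 15.5 FPKM and so far above *Lyst*, with *Lrba* at 1.83 and 1.84 FPKM. *Vamp8* (32.4 and 40.0 FPKM) and *Vamp3* (26.5 and 28.0 FPKM) were above *Vamp7* in both genotypes. *Vamp2* was at 9.69 and 8.83 FPKM and *Vamp4* at 2.53 and 3.14 FPKM. *Unc13b* averaged at most 0.0125 FPKM.

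**Figure D4:**
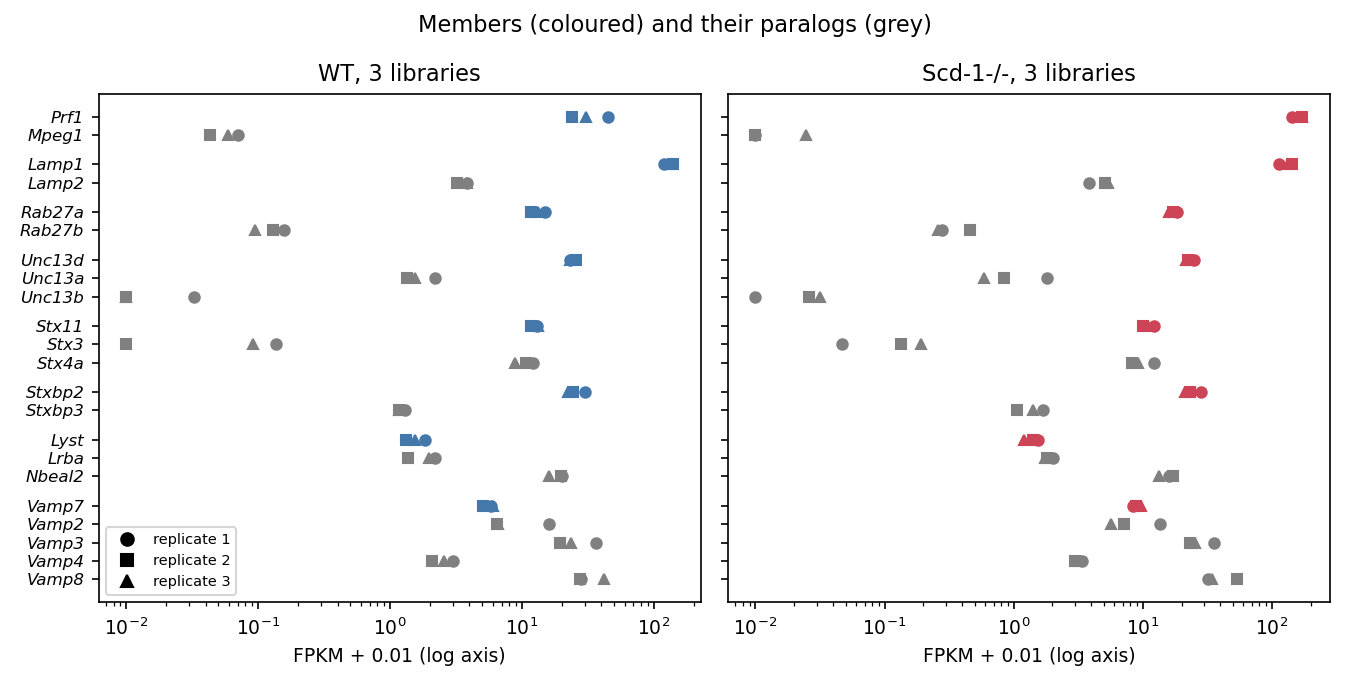
FPKM plus 0.01 on a log axis for members with a paralog named here (coloured) and those paralogs (grey), in WT (left) and *Scd-1*-/- (right) libraries, with symbols for the replicate number. *Prf1*, *Lamp1*, *Rab27a*, *Unc13d* and *Stxbp2* lie far to the right of their paralogs, and *Stx11*, *Lyst* and *Vamp7* do not.

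The wider granule pathway was described by 71 other genes in 6 roles, of which 64 had a mean FPKM of at least 1. None had an adjusted p under 0.05 in edgeR's quasi-likelihood test, although 11 had an unadjusted p under 0.05, against 10.1% of tested genes, and 2 passed the thresholds of the study, both higher (background 0.499%). DESeq2's Wald test called 3 higher, against 1.67% of tested genes, and 1 lower, against 1.09%. With the replicate block, 4 of the 64 were higher, against 2.64% of tested genes, and 2 were lower, against 2.06%. With replicates 2 and 3 alone, 9 were higher, against 6.53%, and 3 lower, against 6.07%. The median log2 fold change of the 64 genes was 0.06.

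The cargo and processing role held 3 of the 4 pathway genes that were higher with the block (*Gzma*, *Gzmb* and *Serpinb9*). All 6 genes of this role had a log2 fold change above 0 (median 0.52), as had 49.9% of all tested genes. The other 3 of the 6, *Ctsc* (0.06), *Calr* (0.06) and *Ctsw* (0.15), were near 0. *Gzma*, which encodes granzyme A, was at 428, 451 and 237 FPKM in the WT and 956, 1309.9 and 1611 FPKM in the *Scd-1*-/- replicates. It was past the thresholds of the study (log2 fold change 1.81, standard error 0.294), with an adjusted p of 0.0847 from edgeR's quasi-likelihood test and 0.0170 with the block. *Gzmb*, which encodes granzyme B, had the highest level of the list, 2531 ± 124 FPKM in WT against 4627 ± 995 FPKM in *Scd-1*-/- Teff (n = 3 each, SD; log2 fold change 0.89, adjusted p = 0.101, with the block 0.0208). *Serpinb9*, which encodes the granzyme B inhibitor that protects the killer cell, was at 15.2, 5.21 and 6.85 FPKM in the WT and 21.9, 19.3 and 19.3 FPKM in the *Scd-1*-/- replicates (1.16, adjusted p = 0.361, with the block 1.32 and 0.0271). In *Gzma*, *Gzmb* and *Serpinb9* the *Scd-1*-/- libraries all lay above the WT libraries.

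*Sytl2*, which encodes a synaptotagmin-like protein that binds Rab27a on granules, was the other gene past the thresholds of the study. It was at 3.71, 2.59 and 3.24 FPKM in the WT and 6.57, 8.27 and 8.03 FPKM in the *Scd-1*-/- replicates. The libraries lay wholly apart, and the log2 fold change was 1.28 (standard error 0.190, edgeR quasi-likelihood adjusted p = 0.0684, 0.0098 with the block). With genotype only, edgeR called *Sytl2* without an FPKM minimum. It also did so without WT replicate 1 or *Scd-1*-/- replicate 1, but in no other fit that left out 1 library. The other 8 tethering and docking genes tested, among them *Rab7* (24.1 and 23.0 FPKM) and *Sytl1* (19.0 and 16.8 FPKM), passed neither with nor without the block. With replicates 2 and 3 alone, where 12.6% of all genes were called, edgeR called 2 of these 8: *Rab11a*, whose *Scd-1*-/- libraries all lay above the WT libraries (log2 fold change 0.68, adjusted p = 0.0143), and *Unc13a*, whose libraries overlapped (-0.997, adjusted p = 0.0181).

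Neither the 19 biogenesis and sorting genes tested, the 14 SNAREs, regulators and calcium sensors, nor the 10 genes of granule movement and the synapse held a gene called by edgeR in either fit or by DESeq2. Of these, 2, 1 and 1 had an unadjusted p under 0.05, and their median log2 fold changes were 0.10, 0.07 and 0.05. Their most abundant genes were the sorting receptor *M6pr* (40.2 and 51.4 FPKM in WT and *Scd-1*-/- Teff) and the adaptor subunit *Ap3b1* (31.2 and 32.9 FPKM), the SNAREs *Vamp8* and *Vamp3*, and the actin regulators *Coro1a* (344 and 330.0 FPKM) and *Cdc42* (186 and 229 FPKM).

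All 6 calcium entry genes had a log2 fold change below 0, with a median of -0.54, where 50.1% of all tested genes lay below 0. Without the block, edgeR called 0 of the 6 and 2 had an unadjusted p under 0.05, while DESeq2 called *Stim2*. *Plcg1*, which encodes the phospholipase that acts after the T cell receptor, was at 29.7, 24.7 and 20.7 FPKM in the WT and 20.8, 12.6 and 10.7 FPKM in the *Scd-1*-/- replicates (log2 fold change -0.75, edgeR quasi-likelihood adjusted p = 0.403, with the block -0.79 and 0.0120). Its ranges met only through replicate 1 of *Scd-1*-/- Teff. *Stim2*, which encodes a calcium sensor of the endoplasmic reticulum, was at 3.73, 2.90 and 4.52 FPKM in the WT and 1.66, 1.98 and 2.34 FPKM in the *Scd-1*-/- replicates, wholly apart (-0.87, adjusted p = 0.223, with the block 0.0302). With replicates 2 and 3 alone, edgeR called *Plcg1* (-0.93, adjusted p = 0.00266) but not *Stim2* (-0.74, adjusted p = 0.0636). *Stim1*, the more abundant sensor, was at 35.2 ± 6.41 FPKM in WT against 27.7 ± 8.52 FPKM in *Scd-1*-/- Teff (n = 3 each, SD) and passed neither fit.

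**Figure D5:**
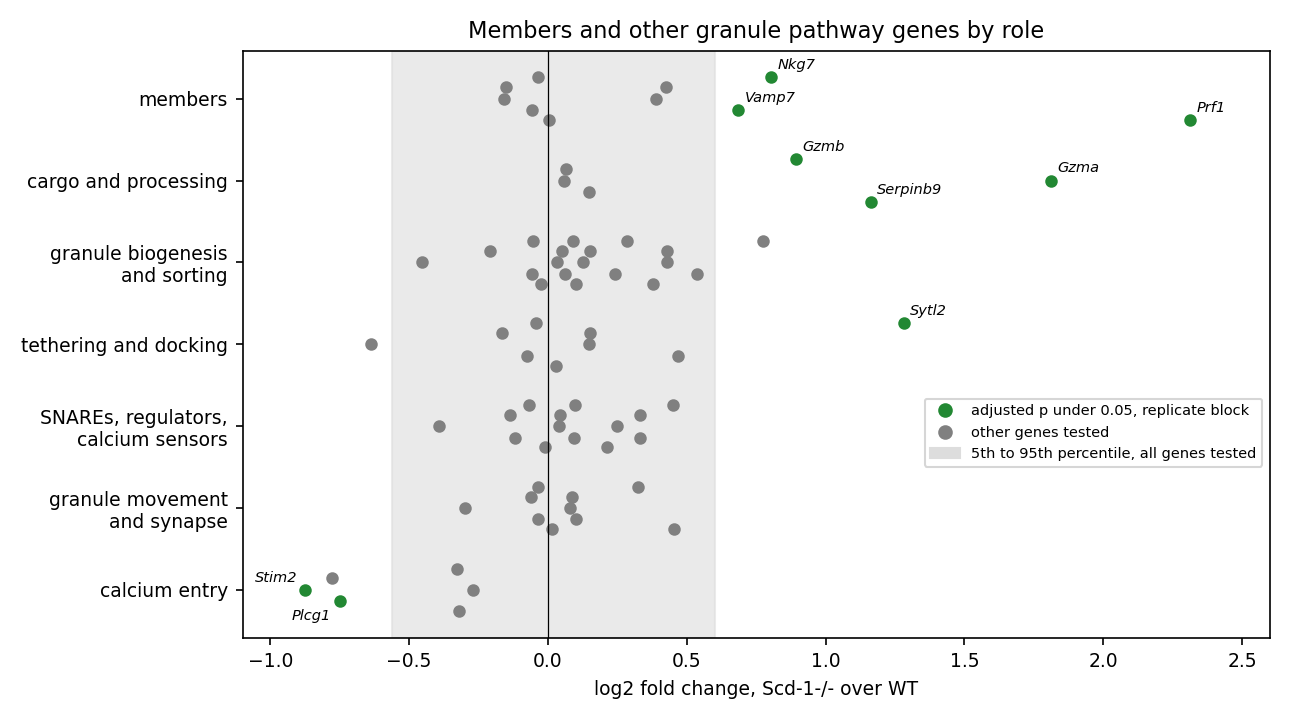
Log2 fold change (*Scd-1*-/- over WT) of the 10 members and the 64 other granule pathway genes tested, each point 1 gene, by role. The grey band spans the 5th to 95th percentile of all genes tested (-0.56 to 0.60), and green points, named, had an adjusted p under 0.05 with the replicate block: 7 lie right of the band and 2, both calcium entry genes, left of it.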

How the data were processed

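RNA-seq of 3 WT and 3 *Scd-1*-/- Teff libraries was used. The authors aligned reads to GRCm38 with HISAT2 and counted them with StringTie 1.3.0, per the submitters' processing notes, and deposited raw counts per gene. The authors also deposited FPKM, which scales each count to gene length and library total. Counts over FPKM gave the same gene lengths in every library (largest spread 0.0018%, 9315 genes), so the deposited FPKM hold no TMM factor. The methods name a stranded total RNA kit and the labels a poly(A) kit of another maker, and the strand setting of the counting is not given in the sources used here.

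Counts were tested with edgeR 4.0.16 (quasi-likelihood, TMM factors 0.986 to 1.03, genotype only, Benjamini-Hochberg over 9627 genes whose FPKM averaged 1 or more) in R 4.3.3. For genes below this level, the fit took all 17192 genes detected in any library. The standard error is the size of the log2 fold change over the square root of F. Alternatives were DESeq2 1.42.0, limma 3.58.1 on log2(FPKM + 1) and log2(FPKM + 0.1), median-ratio factors, no FPKM minimum or 5, a replicate block, replicates 2 and 3 alone, and leaving out each library. The tests were tried on simulated counts.

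Libraries of 14034479 to 15866216 counts set the precision, and a count of 0 allows up to 3 counts, for counting error only. The labels give both genotypes replicate numbers without saying what they stand for. Deviations from the group means correlated between same-numbered libraries at r = 0.595, 0.306 and 0.470 over 9627 genes, and the numbers were taken as pairing. They separated replicate 1 from the others, but replicates 2 and 3 not fully: *Scd-1*-/- replicate 2 correlated at 0.380 with WT replicate 3, and *Scd-1*-/- replicate 3 at 0.180 with WT replicate 2.

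The members, lists and tests were chosen with earlier results of these data known. Genes named are the members, their listed paralogs, pathway genes past a threshold with or without the block, the 2 most abundant pathway genes of each role, the 5 genes nearest to *Prf1*, cell type markers and *Scd1*. Markers were given as list sums, with those named that a sentence rests on, and *Ctsc*, *Calr*, *Ctsw* and *Rab11a* were named after their values were seen. A paralog and a marker of these lists are not named here. *Grtp1* was named for its overlap with *Lamp1*. Positions are from GENCODE M21, matched for 34344 of 34745 identifiers, and promoters from RefSeq GRCm38.p6 for 8 of 10 members. The coding sequences of 9 members had no other gene with 90% identity over 100 bases. *Vamp7* was not checked in this way.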

Additional observations from a re-analysis of the deposited data

How the results depend on the processing

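*Prf1* was higher in *Scd-1*-/- Teff under all 14 alternatives and kept an adjusted p under 0.05 in the 8 that left out no single library. Leaving out 1 library gave 2.12 to 2.62, and the adjusted p was 0.138 without WT replicate 2, 0.190 without WT replicate 3, 0.0991 when *Scd-1*-/- replicate 2 was omitted and 0.163 when *Scd-1*-/- replicate 3 was (edgeR, Benjamini-Hochberg). It was 0.0038 without WT replicate 1 and 0.0084 without *Scd-1*-/- replicate 1. With DESeq2, 3 members (*Prf1*, *Nkg7* at adjusted p = 0.0150 and *Vamp7* at 0.0243) and 4 pathway genes were called. With the replicate block 3 members and 6 pathway genes were called, and without an FPKM minimum 3 pathway genes (0.489% of all genes in that fit). With replicates 2 and 3 alone, 5 members and 12 pathway genes were called (12.6% of all tested genes) and 2 members and 5 pathway genes passed the thresholds of the study (3.83%). Leaving out 1 library gave 0 to 2 members and 0 to 4 pathway genes called (0.0208% to 1.89% of all tested genes), and 1 to 2 members and 1 to 4 pathway genes past those thresholds (0.26% to 1.69%). Member calls were 0 without WT replicate 2 or 3 or *Scd-1*-/- replicate 2 or 3, and 2 without WT replicate 1. Pathway calls were 2 without WT replicate 1 and 4 without *Scd-1*-/- replicate 1. Pathway genes past those thresholds were 4 without *Scd-1*-/- replicate 1 and 1 without WT replicate 2 or 3 or *Scd-1*-/- replicate 2 or 3. Genes near 0 changed sign: *Lamp1* was -0.022 with limma at either pseudocount, -0.0050 without an FPKM minimum, and -0.072 to 0.089 over fits that left out 1 library, *Unc13d* was -0.10 to 0.010 and *Stxbp2* -0.18 to 0.093 over those fits. The difference in the *Prf1* share was 9.39 points from counts and 11.2 without *Srgn*, and 9.80 to 11.0 with 1 library left out. *Lyst* gave no value at a mean FPKM of at least 5. Among the members the block changed the calls of *Nkg7* and *Vamp7* and no other. The causes of these shifts were not tested.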

Other observations

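The 5 genes, outside the members, whose pattern over the 6 libraries was closest to that of *Prf1* were *Havcr2*, *Klre1*, *Cd244*, *Anxa1* and *Gng11*, by the root mean square distance of the centred log2 CPM among tested genes. The distances were 0.143, 0.183, 0.186, 0.193 and 0.207. *Havcr2*, which encodes the inhibitory receptor TIM-3, was at 4.44, 1.79 and 2.29 FPKM in the WT and 11.9, 12.7 and 13.5 FPKM in the *Scd-1*-/- replicates. *Cd244*, which encodes a receptor of natural killer and CD8 T cells, was at 2.81, 1.08 and 1.42 FPKM in the WT and 5.94, 8.42 and 7.81 FPKM in the *Scd-1*-/- replicates. As with *Prf1*, WT replicate 1 was the highest WT library and *Scd-1*-/- replicate 1 the lowest *Scd-1*-/- library in both. All 5 had log2 fold changes of 2.07 to 2.18 without passing edgeR's quasi-likelihood test (adjusted p from 0.0527 to 0.0921), and all 5 passed it with the replicate block (adjusted p from 0.00673 to 0.0171). They were chosen for this likeness, so these values are a description.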
